A study of Homo sapiens with 16 samples.

Results

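The transcripts of 10 antioxidant genes were followed in LN229 cells, an established human glioblastoma (GBM) line. They were the 6 peroxiredoxins PRDX1 to PRDX6, the thioredoxins TXN and TXN2, and the superoxide dismutases SOD1 and SOD2. The members were taken by gene symbol, and all 10 were listed among the 13559 genes of a first experiment and the 14024 genes of a second. The first experiment compared untreated cells in regular culture with untreated cells in ischemic culture. The second combined regular or ischemic culture with DMSO (the vehicle), VX745 (an inhibitor of the kinase p38α) or MK25 (an inhibitor of MK2, a kinase that p38 activates), to ask which ischemia-induced transcripts depend on this pathway. Each of the 8 groups had 2 libraries, 16 in all, and neither the labels nor the methods for these libraries say that the 2 were separate cultures, although the study's general statement on statistics speaks of independent experiments for its in vitro work. A p-value here sets a difference between groups against the spread between libraries of a group, which may be technical. That spread was estimated with the help of other genes of similar level. In the second experiment it was shared by all groups. The study's methods give the ischemic medium as 2 mM glucose, 0.1 mM glutamine and 1% serum under about 1% oxygen, against 10% serum in regular medium. They list VX745 at 2 µM and MK25 at 10 µM, while the time in culture for these libraries is not given in the sources used here.

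Superoxide dismutases turn superoxide into hydrogen peroxide, SOD1 mainly in the cytosol and SOD2 in the mitochondrial matrix. Peroxiredoxins reduce that peroxide with a reactive cysteine, and for most of them thioredoxin restores the oxidized cysteine and is itself restored by thioredoxin reductase with NADPH. PRDX1, PRDX2 and PRDX6 act mainly in the cytosol, PRDX3 in mitochondria, PRDX4 in the endoplasmic reticulum and PRDX5 in several compartments, while TXN is cytosolic and TXN2 mitochondrial.

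The libraries held between 20122017 and 37562668 reads on listed genes, and a member had between 507 and 14580 reads in a library. Values are log2 normalized CPM (reads of a gene scaled to the size of its library), and a gene was called where its adjusted p from limma was under 0.05. The glioma and neural stem markers VIM, NES, CD44, SOX2, EGFR, GFAP, OLIG2 and S100B were all listed, while 0 of 3 endothelial, 0 of 4 immune and 0 of 2 epithelial markers were listed, and 2 of 3 neuronal ones (SNAP25 and SYT1, at log2 levels of 1.47 to 6.31). CA9, a carbonic anhydrase induced by low oxygen, averaged 7.67 in untreated ischemic against -1.78 in untreated regular culture, and between 6.88 and 7.29 in the ischemic groups of the second experiment against -1.69 to 2.22 in the regular ones, the highest of these being the MK25 group. In regular culture CA9 was higher with MK25 than with DMSO by a log2 value of 2.97 (adjusted p = 4.9e-05, limma). The 2 regular DMSO libraries were at -1.77 and 0.27, from 7 and 28 reads. The cause was not tested. RefSeq names 24 pseudogenes for 9 of the members, all but PRDX6, and none has a row of its own in either table; how reads matching both a member and its pseudogene were counted is not given in the sources used here.

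The stretches just before the transcription start are shown for PRDX3 and TXN, which were lower in ischemic culture, and for PRDX5, which was higher with no inhibitor. They come from RefSeq promoters on GRCh38.p14, and each is read 5′ to 3′ on the gene's strand over the 250 bases before the start. PRDX3 lies at chr10:119178813-119179062 (minus strand), TXN at chr9:110256508-110256757 (minus strand) and PRDX5 at chr11:64317871-64318120 (plus strand). Capitals mark the letters ACGTG or GCGTG on either strand, the cores of the element that hypoxia-inducible factors bind.
PRDX3: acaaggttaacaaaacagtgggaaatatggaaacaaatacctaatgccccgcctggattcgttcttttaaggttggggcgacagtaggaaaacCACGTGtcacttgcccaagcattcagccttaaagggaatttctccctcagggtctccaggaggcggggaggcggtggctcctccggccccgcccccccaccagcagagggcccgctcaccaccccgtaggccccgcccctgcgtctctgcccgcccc
TXN: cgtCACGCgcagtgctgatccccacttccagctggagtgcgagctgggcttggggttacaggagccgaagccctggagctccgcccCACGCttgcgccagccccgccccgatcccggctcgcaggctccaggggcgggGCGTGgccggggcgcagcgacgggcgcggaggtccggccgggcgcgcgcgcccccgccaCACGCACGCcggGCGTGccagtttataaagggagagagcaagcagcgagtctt
PRDX5: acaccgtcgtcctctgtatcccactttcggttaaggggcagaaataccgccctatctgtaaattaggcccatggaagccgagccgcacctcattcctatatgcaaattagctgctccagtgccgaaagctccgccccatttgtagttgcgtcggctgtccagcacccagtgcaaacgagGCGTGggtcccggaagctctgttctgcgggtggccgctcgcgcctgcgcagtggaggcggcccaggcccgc

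PRDX3 held a palindrome in which ACGTG was read on both strands, TXN held 6 copies of GCGTG and PRDX5 held 1. A promoter entry was given for 6 of the 10 members with 10 starts (PRDX2, PRDX3, PRDX4, PRDX5, TXN and SOD2), each entry spanning 300 bases, 250 before and 50 after the start. ACGTG or GCGTG was found at 9 of these 10 starts, among them 1 or more of each of the 6 members, and in 48.4% of 35116 RefSeq promoters of 300 bases. The starts are not independent: SOD2 gave 4 of them, and the 2 PRDX5 entries overlap and share a GCGTG. An excess over all promoters was not tested. The core of the antioxidant response element, TGACNNNGC, was in 13.3% of all promoters and in 0 of these 6 members, and the NF-kB core GGACTTTCC was in 0.37% and in 0 of these 6. Only these exact NF-kB letters were searched, and they are so rare that 0 of 6 cannot show an absence of NF-kB sites. These matches are descriptions of letters, and were found in genes that fell as well as in genes that rose.

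PRDX1, PRDX2, PRDX3, PRDX6, TXN and SOD1 were lower in ischemic than in regular culture in untreated cells, and PRDX5 and SOD2 were higher. The largest difference was in PRDX1 at 3.25-fold lower, followed by PRDX3 at 2.16-fold lower. The 6 lower members stood against 35.2% of all genes called lower, and the 2 higher ones against 35.2% called higher, so that most genes of this cell line passed the same test. By the stricter rule of at least 2-fold lower, which 9.1% of all genes met, PRDX1 and PRDX3 passed. The median log2 fold change was -0.60 over the members and -0.01 over all genes.

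With DMSO the same question gave a smaller set of differences: PRDX1, PRDX2, PRDX3, PRDX6 and TXN were lower, 5 members against 35.2% of all genes, and PRDX5 and SOD2 were higher, 2 members against 34.4%. At 2-fold or more, which 8.11% of all genes met, PRDX1 alone passed. The member median was -0.15 and that of all genes -0.01. The 2 experiments were normalized separately, and whether their responses differ was not tested. With VX745 in both cultures 6 members were lower in ischemic culture (32.6% of all genes) and 0 were higher (34.0% of all genes). With MK25 in both cultures 8 were lower (33.7%) and 0 higher (33.5%). The 8 included PRDX4 and PRDX5, which both lost the call with no variance trend and without ischemic MK25 replicate 1 or 2 or regular MK25 replicate 1. At an unadjusted p under 0.05 limma gave 6 members with VX745, against 69.3% of all genes, and 8 with MK25, against 69.6%. The VX745, MK25 and DMSO comparisons use different libraries, while each inhibitor comparison shares its DMSO libraries with the ischemia comparison.

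**Figure D1:**
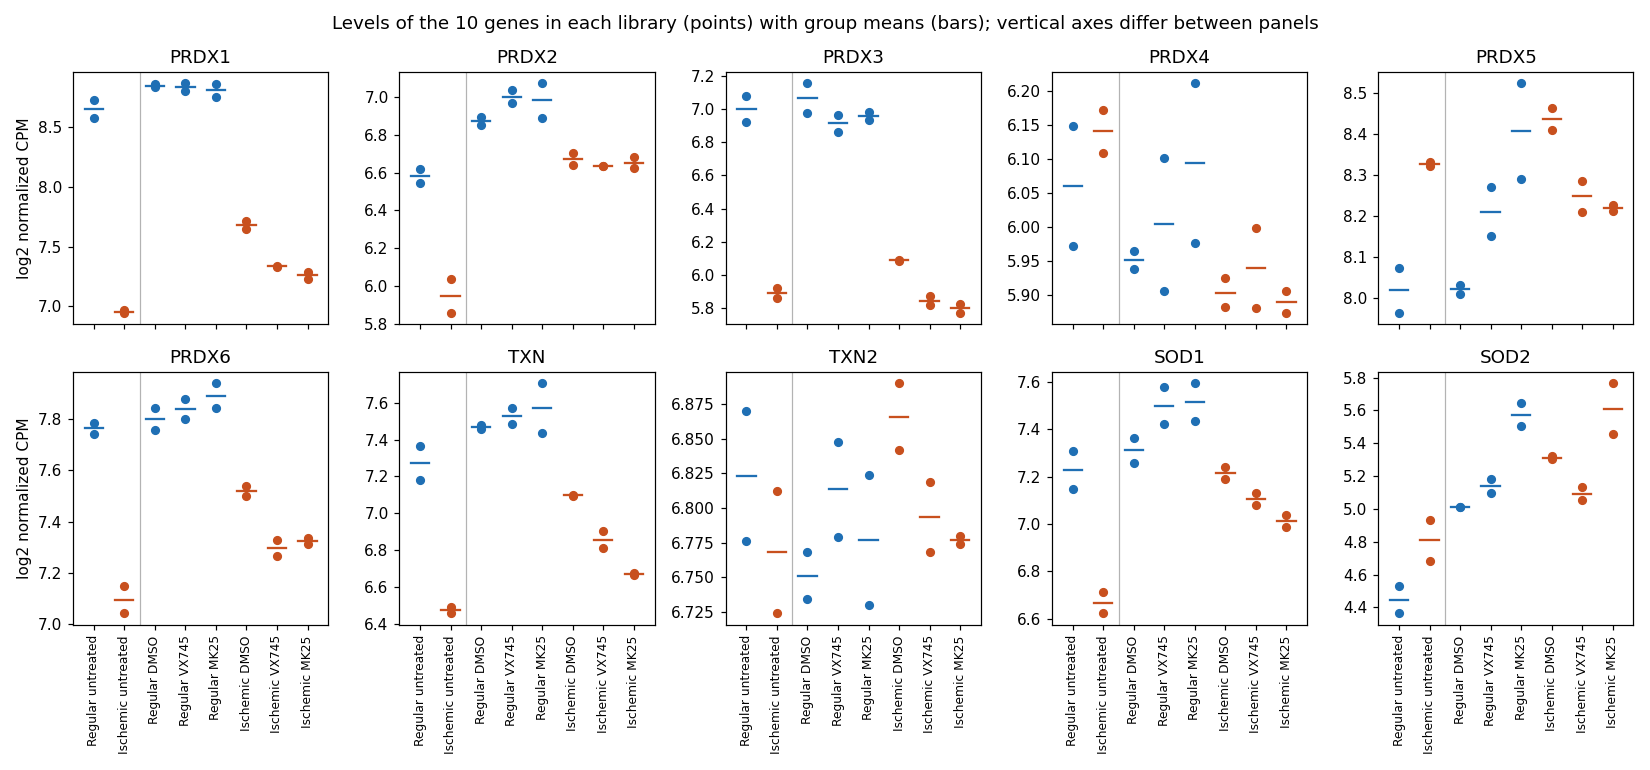
Levels of each gene in log2 normalized CPM (vertical axis, different for each panel) in the 8 groups (horizontal axis), with a point for each of the 2 libraries, a bar for their mean, blue for regular and orange for ischemic culture, and a line between the experiments. PRDX1 and PRDX3 are low in every ischemic group, while SOD2 is highest in the MK25 groups of both cultures.

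PRDX1, the most abundant member per length in regular culture, had levels of 8.73 and 8.58 in untreated regular and 6.95 and 6.97 in untreated ischemic libraries. Regular culture in the second experiment gave 8.86 and 8.83 (DMSO), 8.87 and 8.80 (VX745) and 8.86 and 8.76 (MK25). Ischemic culture gave 7.65 and 7.71 (DMSO), 7.33 and 7.34 (VX745) and 7.29 and 7.23 (MK25). The 6 regular libraries overlapped each other, and every ischemic library lay below all of them, with the inhibitor libraries below the DMSO ones. The log2 fold change of ischemic against regular culture was -1.70 untreated (standard error, SE, 0.070; adjusted p = 8.44e-10, limma) and -1.17 with DMSO (SE 0.054; adjusted p = 3.9e-12, limma). PRDX1 took 0.041% to 0.046% of reads in untreated regular and 0.012% in untreated ischemic libraries.

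PRDX3, the mitochondrial peroxiredoxin, was 7.08 and 6.93 in untreated regular against 5.92 and 5.86 in untreated ischemic libraries. With DMSO it was 6.98 and 7.16 in regular and 6.09 and 6.09 in ischemic culture. The VX745 libraries were at 6.97 and 6.86 in regular and 5.82 and 5.87 in ischemic culture, and the MK25 libraries at 6.99 and 6.93 against 5.77 and 5.83. The cultures did not overlap under any treatment. The log2 fold changes were -1.11 untreated, -0.98 with DMSO, -1.07 with VX745 and -1.16 with MK25, all called by limma (adjusted p of 7.18e-08 or less).

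TXN, the cytosolic thioredoxin, was 7.36 and 7.18 in untreated regular and 6.49 and 6.46 in untreated ischemic libraries. With DMSO it was 7.48 and 7.46 in regular and 7.10 and 7.10 in ischemic culture. With MK25 it was 7.71 and 7.44 in regular and 6.68 and 6.67 in ischemic culture. The ischemic libraries lay below the regular ones in each case. The ischemic against regular log2 fold change was -0.80 (SE 0.075) untreated, -0.37 (SE 0.070) with DMSO and -0.90 (SE 0.070) with MK25. TXN2, the mitochondrial form, was not called in any comparison. With libraries scaled by total reads it was called lower in ischemic culture untreated (-0.23, adjusted p = 0.00999, limma) and with VX745 (-0.13, adjusted p = 0.0464, limma). Its 16 values lay between 6.72 and 6.89, and the 95% interval of its log2 difference between cultures was -0.21 to 0.10 untreated and -0.001 to 0.23 with DMSO (adjusted p = 0.0728, limma).

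PRDX6, which can use glutathione in place of thioredoxin, was 7.79 and 7.74 in untreated regular against 7.04 and 7.15 in untreated ischemic libraries. With DMSO the values were 7.84 and 7.76 against 7.50 and 7.54. Its log2 fold change was -0.67 untreated and -0.28 with DMSO. PRDX2 fell by 0.64 on the log2 scale untreated and by 0.20 with DMSO; the DMSO call was lost without ischemic DMSO replicate 1 (adjusted p = 0.0698, limma). PRDX4, of the endoplasmic reticulum, was not called untreated (95% interval of the log2 difference -0.09 to 0.25), with DMSO (-0.21 to 0.12) or with VX745 (-0.23 to 0.10). With MK25 in both cultures it was lower in ischemic culture by a log2 value of -0.20 (adjusted p = 0.0303, limma), and with DMSO it was called lower when libraries were scaled by total reads (-0.27, adjusted p = 0.00618, limma).

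PRDX5 ran the other way. It was 8.07 and 7.96 in untreated regular and 8.33 and 8.32 in untreated ischemic libraries, and with DMSO 8.03 and 8.01 against 8.46 and 8.41. The ranges did not overlap, and the log2 fold changes were 0.31 untreated (adjusted p = 0.0013, limma) and 0.42 with DMSO (adjusted p = 2.93e-05, limma). With quantile normalization both calls were lost (adjusted p = 0.118 and 0.0541, limma). With VX745 in both cultures the difference was 0.04 and not called. With MK25 in both cultures it was -0.19 (adjusted p = 0.0202, limma), a call lost with no variance trend (adjusted p = 0.0717, limma) and in 3 of the 4 fits that left out a library, up to an adjusted p of 0.363 without regular MK25 replicate 1 (limma). In per-length levels, CPM per kilobase of the MANE Select transcript, PRDX5 ranked first of the 10 in ischemic culture, at 373.0 untreated and 402.8 with DMSO. PRDX1 ranked first in regular culture, at 426.7 untreated and 486.7 with DMSO. SOD2 ranked last in those 4 groups, with a MANE Select transcript of 14167 bases that sets its per-length level.

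SOD1, the cytosolic dismutase, was 7.31 and 7.15 in untreated regular against 6.62 and 6.71 in untreated ischemic libraries, a log2 fold change of -0.56 (adjusted p = 2.87e-05, limma). With DMSO it was 7.37 and 7.26 against 7.24 and 7.19, a difference of -0.10 that was not called (95% interval -0.24 to 0.04). It was called with quantile normalization (-0.23, adjusted p = 0.00681, limma) and with libraries scaled by total reads (-0.32, adjusted p = 0.000346, limma). With VX745 in both cultures SOD1 was lower by a log2 value of -0.40 and with MK25 by -0.50, both called. SOD2, the mitochondrial dismutase and a known NF-kB target, was 4.37 and 4.53 in untreated regular and 4.68 and 4.94 in untreated ischemic libraries. With DMSO it was 5.01 and 5.01 against 5.32 and 5.30. The log2 fold changes of SOD2 were 0.36 untreated (SE 0.107; adjusted p = 0.00962, limma) and 0.30 with DMSO (SE 0.086; adjusted p = 0.00492, limma). Without untreated ischemic replicate 2 or untreated regular replicate 1 the untreated call was lost (adjusted p = 0.0576 and 0.118, limma), as it was with no variance trend (adjusted p = 0.0551, limma).

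**Figure D2:**
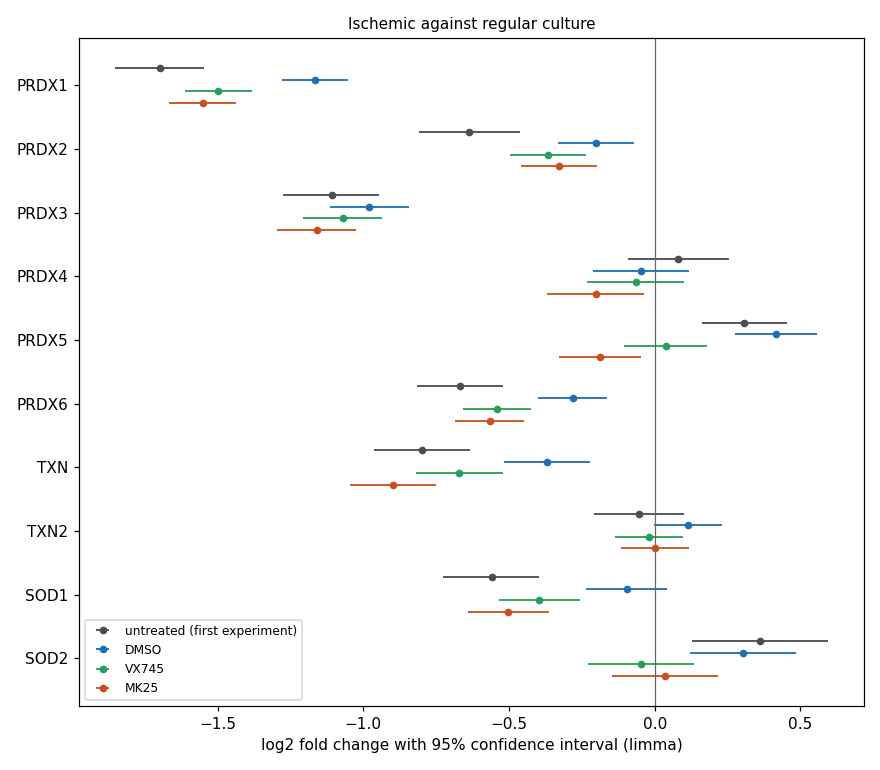
Log2 fold change of ischemic against regular culture (horizontal axis) for each gene (vertical axis), with 95% confidence intervals from limma, in untreated cells of the first experiment and with DMSO, VX745 or MK25 in the second. PRDX1 and PRDX3 lie furthest to the left in all 4, from -0.98 to -1.70.

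The scale of the values mattered for these comparisons. Scaling each library by its total reads moved the median of all genes by -0.17 untreated and -0.22 with DMSO (ischemic against regular) and by 0.12 and 0.13 for VX745 and MK25 against DMSO in ischemic culture. The split of called genes went from 4772 higher and 4768 lower in ischemic culture to 3623 higher and 6071 lower untreated, and the share that were higher went from 49.4% to 32.1% with DMSO. Under this scaling every member called lower before was still called lower, both untreated and with DMSO. TXN2 was added to the lower calls untreated, and PRDX4 and SOD1 with DMSO, while no member was called higher untreated. SOD2 lost its call both untreated (log2 fold change 0.19, adjusted p = 0.121, limma) and with DMSO (0.08, adjusted p = 0.43, limma). PRDX5 lost it untreated (0.14, adjusted p = 0.081, limma) and kept it with DMSO.

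In ischemic culture VX745 was accompanied by lower PRDX1, PRDX3, PRDX5, PRDX6 and TXN, 5 members against 14.9% of all genes called lower, and 0 members were higher against 14.0% of all genes. The largest of these differences was in PRDX1, at -0.34 on the log2 scale, where the level fell by 21.2% (SE 0.054; adjusted p = 0.000216, limma). PRDX3 was lower by a log2 value of -0.24, TXN by -0.24, PRDX6 by -0.22 and PRDX5 by -0.19. PRDX1 alone was called with libraries scaled by total reads, which moved the share of called genes that were higher from 48.3% to 83.4%. SOD2 was 5.06 and 5.13 against 5.32 and 5.30 with DMSO and was not called (95% interval -0.40 to -0.04, adjusted p = 0.0664, limma). Leaving out any single library of these groups left fewer members and fewer of all genes called. Without ischemic VX745 replicate 1 the log2 value was -0.22 for PRDX3, -0.20 for TXN and -0.15 for PRDX5.

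MK25 in ischemic culture was accompanied by lower PRDX1, PRDX3, PRDX5, PRDX6, TXN and SOD1, 6 members against 22.0% of all genes, and by higher SOD2, 1 member against 19.8%. TXN was lower by a log2 value of -0.43 (SE 0.070; adjusted p = 0.000135, limma), and PRDX1 by -0.42 (SE 0.054; adjusted p = 1.36e-05, limma). SOD2 was 5.76 and 5.46 against 5.32 and 5.30, a log2 fold change of 0.30 (adjusted p = 0.0109, limma). Its call was lost without ischemic MK25 replicate 1 (log2 fold change 0.14, adjusted p = 0.228, limma) and without ischemic DMSO replicate 2 (adjusted p = 0.0555, limma). With libraries scaled by total reads PRDX1, TXN and SOD2 were called, and the share of called genes that were higher went from 47.4% to 75.0%. Leaving out any single library of these groups left fewer members and fewer of all genes called. Without ischemic MK25 replicate 2 the log2 value was -0.21 for PRDX5, -0.18 for PRDX6 and -0.18 for SOD1.

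In regular culture VX745 gave 0 called members, with 0.178% of all genes higher and 0.157% lower. At an unadjusted p under 0.05 there were 3 members, against 14.8% of all genes, by limma, and voom on the recovered reads also called 0 members. The intervals still allow differences: that of SOD1 ran from 0.05 to 0.33, that of PRDX5 from 0.05 to 0.33 and that of PRDX3 from -0.29 to -0.02. MK25 in regular culture was accompanied by higher PRDX5 and SOD2, 2 members against 7.0% of all genes, and 0 lower against 5.21%. SOD2 was 5.65 and 5.50 with MK25 against 5.01 and 5.01 with DMSO, a log2 fold change of 0.56, or 47.8% higher (SE 0.086; adjusted p = 0.000331, limma). PRDX5 was 8.52 and 8.29 against 8.03 and 8.01, a log2 fold change of 0.39 (SE 0.067; adjusted p = 0.00105, limma). SOD1 stood at the threshold, with a log2 value of 0.20 (adjusted p = 0.0524, limma). Without regular MK25 replicate 2 the log2 fold change was 0.28 for SOD1 and 0.24 for TXN, while TXN was at 0.10 with all libraries.

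The 2 inhibitors have different protein targets and were used at different listed concentrations, so they are set side by side and no comparison of potency is made. SOD2 alone among the members was called between MK25 and VX745 libraries, and it was higher under MK25. The log2 difference was 0.52 in ischemic culture (adjusted p = 0.000361, limma), where 8.22% of all genes were higher and 10.2% lower. It was 0.43 in regular culture (adjusted p = 0.00455, limma), where 3.96% were higher and 1.43% lower. The regular difference was lost without regular MK25 replicate 1 (adjusted p = 0.058, limma) or regular VX745 replicate 2 (adjusted p = 0.0746, limma). For TXN in ischemic culture the difference was -0.19 (95% interval -0.34 to -0.04, adjusted p = 0.0765, limma). It was called when only the groups compared were fitted (adjusted p = 0.0161, limma). For PRDX5 in regular culture the difference was 0.20 (95% interval 0.055 to 0.338, adjusted p = 0.112, limma). Members not called may thus still differ between the inhibitors.

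**Figure D3:**
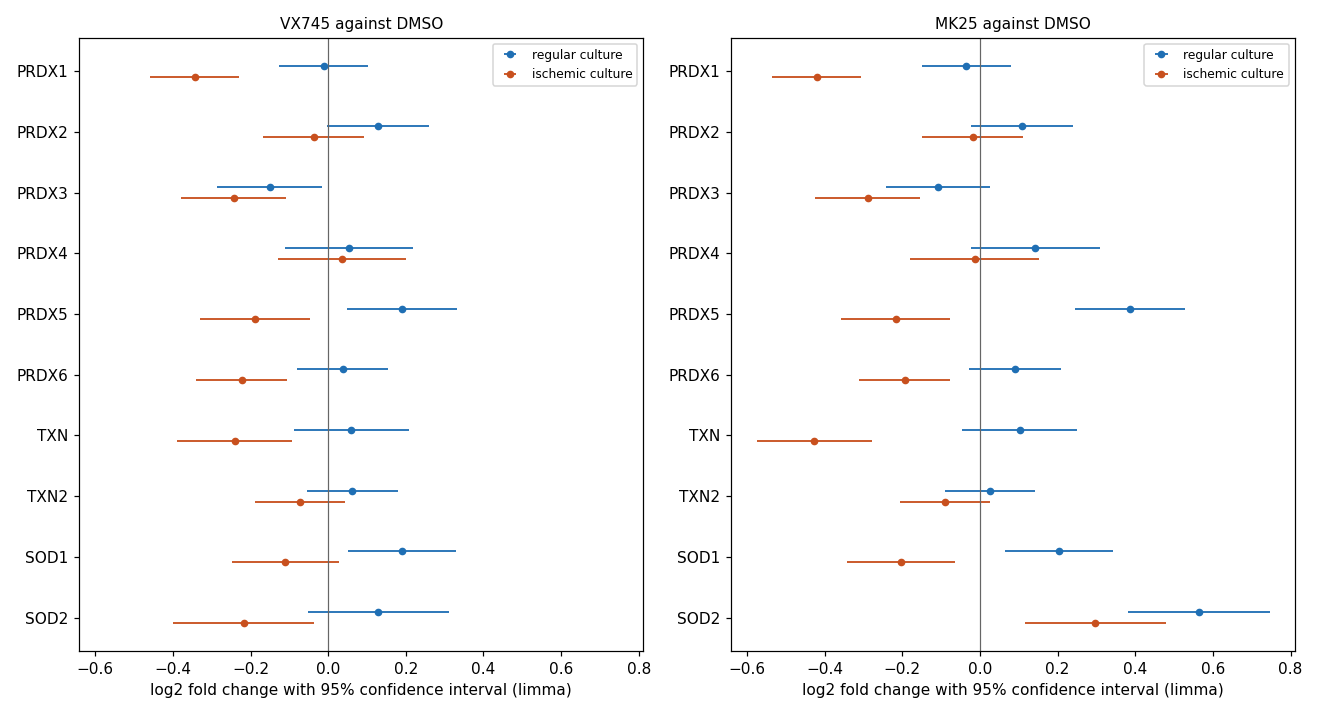
Log2 fold change of VX745 (left) and MK25 (right) against DMSO (horizontal axis) for each gene (vertical axis) in regular (blue) and ischemic (orange) culture, with 95% confidence intervals from limma. PRDX5 lies on opposite sides of 0 in the 2 cultures with MK25, at 0.39 and -0.22.

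The test of the difference between cultures was the interaction of inhibitor and culture. For MK25 it was called lower in 5 members (13.9% of all genes) and higher in 0 (10.5%). The called members were PRDX5 at a log2 value of -0.60 (SE 0.095; adjusted p = 0.000249, limma), TXN at -0.53, SOD1 at -0.41, PRDX1 at -0.39 and PRDX6 at -0.29. PRDX1, PRDX5, TXN and SOD1 were called under all 16 alternatives for this comparison, and PRDX6 under 10. For VX745 it was called lower in 4 members (6.0% of all genes) and higher in 0 (5.78%): PRDX5 at -0.38, PRDX1 at -0.33, SOD1 at -0.30 and PRDX6 at -0.26. None of these 4 was called with quantile normalization, with no variance trend or with total reads as the scale. With total reads the share of called genes that were higher went from 49.1% to 83.1% for VX745 and from 42.9% to 72.5% for MK25. The VX745 calls were also lost without ischemic VX745 replicate 1, where fewer of all genes were called. The log2 values were then -0.34 for PRDX5, -0.33 for PRDX1, -0.29 for PRDX6 and -0.27 for SOD1.

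The members' levels could be set against each other within each culture of the second experiment, over 6 libraries each. In ischemic culture PRDX1 ran with PRDX3 (Pearson's r = 0.96), PRDX5 (0.94) and TXN (0.95), while its r with SOD2 was -0.20. In regular culture the r of PRDX1 with PRDX3 was 0.34 and with PRDX5 0.07, and PRDX5 ran with SOD2 (0.93). Libraries of a culture share a treatment in pairs, so these values describe the groups more than independent samples. Over all 12 libraries the genes most like PRDX1 among 10053 genes with a mean log2 of at least 3 were CNOT9 (r = 0.998), IDH3A (0.997) and RPA2 (0.997). Their r with PRDX1 was 0.24, 0.55 and 0.80 within regular culture and 0.97, 0.95 and 0.98 within ischemic culture. Those most like SOD2 were NPC2 (r = 0.947), PIP4P1 (0.935) and QPCTL (0.924). Their r with SOD2 was 0.998, 0.96 and 0.95 within regular culture and 0.95, 0.96 and 0.89 within ischemic culture.

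**Figure D4:**
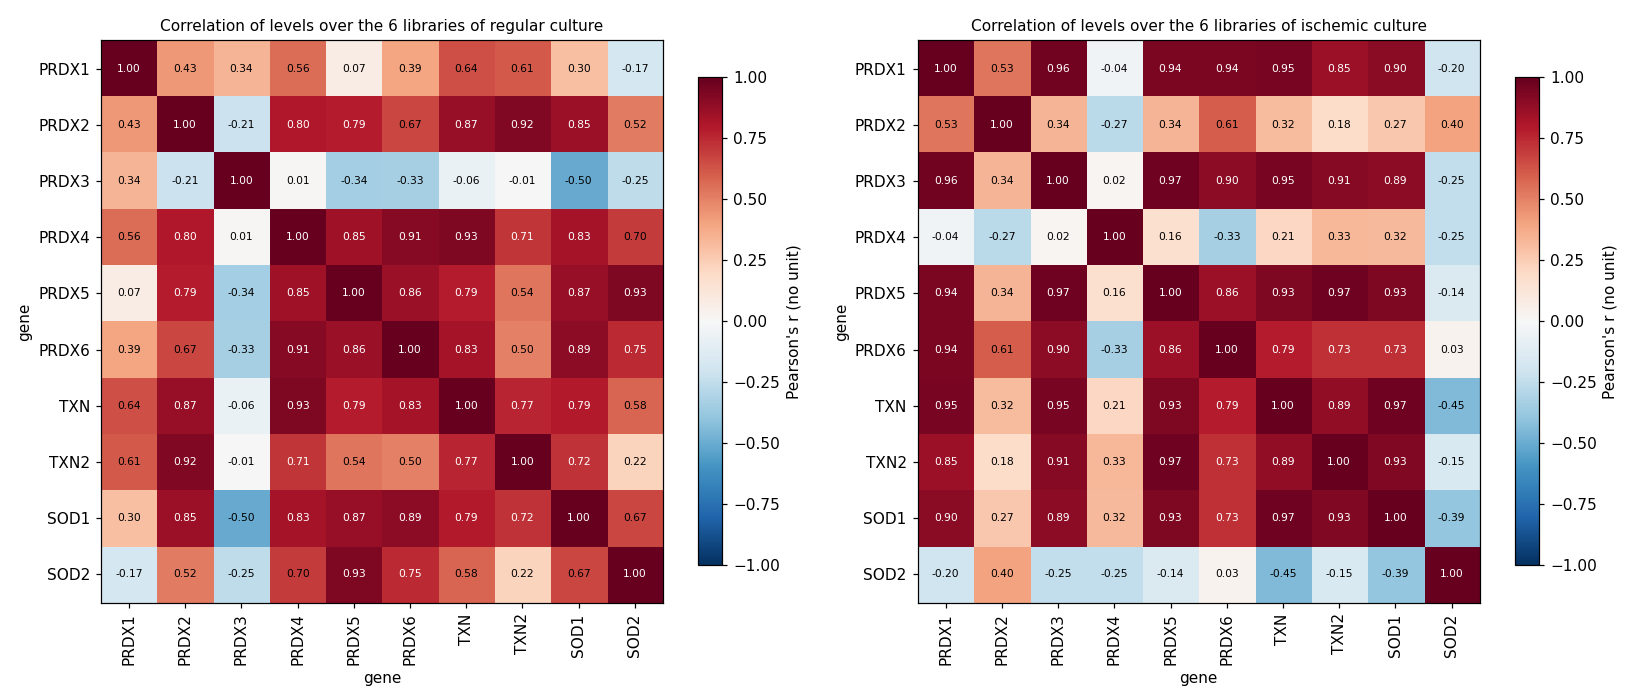
Pearson's r (colour and number, no unit) between the levels of each pair of genes over the 6 libraries of regular (left) and the 6 libraries of ischemic (right) culture in the second experiment. PRDX1 and PRDX3 have an r of 0.34 on the left and 0.96 on the right.

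Of 43 genes listed for the enzymes that serve or run beside these members, 41 were measured. With DMSO 12 of them were higher and 16 lower in ischemic culture, against 34.4% and 35.2% of all genes. Untreated, 11 were higher and 20 lower, against 35.2% and 35.2%. The median log2 fold change was -0.03 with DMSO and -0.18 untreated, so with DMSO the counts lay near those of all genes. TXNRD1, the cytosolic thioredoxin reductase that restores TXN, was higher by a log2 value of 1.05 untreated and 0.50 with DMSO, in contrast to TXN itself. TXNRD2, its mitochondrial counterpart, was not called in either (-0.11 and 0.12), and TXNRD3 was lower (-0.90 and -0.69). TXNIP, which binds and inhibits thioredoxin and responds to glucose, averaged 2.07 in untreated ischemic against 6.65 in untreated regular culture and was lower by a log2 value of -4.58, and of -3.88 with DMSO. In ischemic culture TXNRD1 differed from DMSO by a log2 value of -0.71 with MK25 (adjusted p = 8.54e-08, limma) and -0.32 with VX745 (adjusted p = 0.000672, limma).

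The lists by role are small, and their counts are to be read against 34.4% of all genes higher and 35.2% lower with DMSO. The list named peroxiredoxin repair held SRXN1, which is sulfiredoxin, and the sestrins SESN1, SESN2 and SESN3. Of these 4 genes, 2 were higher and 1 lower with DMSO. SRXN1 was higher by 0.23 and SESN2 by 2.45. Whether the sestrins act in such repair was not tested, so their changes are not read as changes in repair. SESN2 was lower with MK25 than with DMSO in ischemic culture by a log2 value of -1.57 (adjusted p = 2.57e-10, limma), and with VX745 by -0.42. Of 6 measured catalase and glutathione peroxidase genes, 1 was higher and 3 were lower with DMSO, GPX3 by a log2 value of -0.60. Untreated, 0 were higher and 5 lower, against 35.2% and 35.2% of all genes. GPX4 was the 1 called higher with DMSO, and it was called lower untreated. Of 5 glutaredoxin and glutathione reductase genes 2 were higher, GLRX by 2.57, and 3 lower, the same counts as untreated. The copper chaperone CCS, which loads SOD1, was not called (-0.00, 95% interval -0.21 to 0.20). Of 4 methionine sulfoxide reductases 1 was higher and 3 lower (MSRB1, -0.98) with DMSO, and 0 were higher and 1 lower untreated. Of 11 thioredoxin-like genes 2 were higher (NXN, 2.36) and 4 lower with DMSO, and 2 were higher and 5 lower untreated. NXN was low in both cultures, averaging -0.69 in regular and 1.67 in ischemic DMSO libraries. Of 6 NADPH supply genes 3 were higher (ME1, 1.08) and 0 lower with DMSO. The NADPH supply genes PGD and NNT were called lower in the other 3 comparisons of the cultures, where 4 were higher untreated, 3 with VX745 and 2 with MK25. The libraries are bulk, so fewer cells expressing a gene and less of its RNA per cell cannot be told apart.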

How the data were processed

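RNA from LN229 cells was made into libraries with the SMART-Seq mRNA HT kit and Nextera XT and read paired-end on an Illumina NovaSeq. Per the labels and the study's methods the reads were aligned to GRCh38 with HISAT2, and edgeR was used for differences; the counting program is not given in the sources used here. The authors deposited 2 tables of log2 normalized CPM, 1 per experiment. Whole reads were recovered from the steps of these log2 values. Entrez identifiers were matched to RefSeq symbols. Each table was fitted on its own with limma 3.58.1 (R 4.3.3), with a variance trend and all its groups, and p-values were adjusted by Benjamini-Hochberg over all listed genes; a call was an adjusted p under 0.05. 12 comparisons were made, and the fit was tested on simulated data for 2 of them (ischemic against regular culture, untreated and with DMSO). The 10 members and the lists were chosen with earlier results of these data known. All members were named; of the related genes, TXNRD1, TXNRD2, TXNRD3, TXNIP and the largest change per list with DMSO were named, and SRXN1 was added after its values were seen. Alternatives covered filters, scaling, the trend, the replicate block, voom and single libraries.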

Additional observations from a re-analysis of the deposited data

Results flagged for a closer look

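The inhibitor effect differed between cultures, by the interaction test in limma, for 5 members with MK25, against 13.9% of all genes called lower, and 4 with VX745, against 6.0%. All 4 of the VX745 calls were lost with quantile normalization, with no variance trend, with total reads as the scale and without ischemic VX745 replicate 1. With MK25 the log2 differences (ischemic minus regular effect) were -0.60 for PRDX5 (-0.603), -0.53 for TXN (-0.529), -0.41 for SOD1 (-0.407), -0.39 for PRDX1 (-0.385) and -0.29 for PRDX6 (-0.285). With VX745 they were -0.38 for PRDX5 (-0.379), -0.33 for PRDX1 (-0.332), -0.30 for SOD1 and -0.26 for PRDX6. Both interactions share the DMSO libraries. The part of library scaling in these differences was not tested beyond the alternatives given below.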

How the results depend on the processing

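The number of the 10 members called was compared across alternatives for each of the 12 comparisons. At 2-fold or more it was 2 untreated, 1 with DMSO, 2 with VX745 and 2 with MK25 (ischemic against regular), all lower. Of all genes 9.1% untreated, 8.11% with DMSO, 730 of 14024 with VX745 and 749 of 14024 with MK25 were lower by this rule. At 1.5-fold or more it was 0 for VX745 and 0 for MK25 against DMSO in ischemic culture, 0 for MK25 in regular culture, and 0 for MK25 against VX745 in each culture. Among all 14024 genes, this rule gave 610 higher and 127 lower for VX745 and 985 and 371 for MK25 in ischemic culture. For MK25 in regular culture it gave 264 and 85. For MK25 against VX745 it gave 246 and 309 in ischemic and 173 and 32 in regular culture. By unadjusted p it was 3 for VX745 in regular culture, against 14.8% of all genes. For MK25 against VX745 it was 2 in ischemic culture, against 30.6% of all genes, and 2 in regular culture, against 17.6%. With quantile normalization it was 2 for VX745 and 4 for MK25 in ischemic culture and 0 for the VX745 interaction. The calls among all genes were then 2972, 4921 and 1026, against 4051, 5850 and 1653 in the fit used above. With no variance trend it was 3 for VX745 in ischemic culture, 0 for MK25 against VX745 in regular culture and 0 for the VX745 interaction. The calls among all genes were then 3308, 418 and 594, against 4051, 756 and 1653. Scaling by total reads, added after seeing the data, gave 1 for VX745 and 3 for MK25 in ischemic culture and 0 for the VX745 interaction. Among all genes it gave 4339, 6071 and 2048 calls, against 4051, 5850 and 1653. Only the groups compared gave 2 for MK25 against VX745 in ischemic culture, with 3521 of all genes called against 2580. Leaving out single libraries left fewer members called for VX745 and MK25 in ischemic culture. It also changed the calls for ischemic against regular culture with MK25 and for MK25 in regular culture. The same held for MK25 against VX745 in regular culture and for the VX745 interaction. A lone remaining library was taken to vary like the other groups. For VX745 and MK25 in ischemic culture, fewer of all genes were called in these fits too. The cause of these changes was not tested.

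Of 1540 values of single members under an alternative, 1425 kept their direction or stayed uncalled, 94 lost and 21 gained a call, and 0 called values changed sign; 65 uncalled values had another sign. Replicate numbers are only names here: the correlation of replicate differences between groups was 0.27 in the first experiment and -0.27 to 0.33 in the second. With the replicate number as a block the members called were 8 untreated, 7 with DMSO, 5 for VX745 and 7 for MK25 in ischemic culture, and 3 for MK25 in regular culture, where SOD1 gained its call. In the same order, 9576, 9734, 3997, 5807 and 1749 of all genes were called. A crossed pairing, added after seeing the data where this correlation of replicates was -0.11 to -0.27, favours calls by design. It gave 7 members for VX745 and 7 for MK25 in ischemic culture (5821 and 7481 of all genes). For ischemic against regular culture with VX745 it gave 6 (10270 of all genes). With 2 libraries a group, small differences may not be detectable.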
